A study of Mus musculus with 16 samples.

Results

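The comparison described here is that of fat from mice overexpressing LTA4H in adipocytes (OE) with fat from their control mice (Ctrl) at 20 weeks of age, after 16 weeks of a high-fat diet. It holds 8 of the 16 libraries of the series, 4 OE and 4 Ctrl, chosen by their labelled genotype and age; the other 8 came from mice of the same kinds at 8 weeks of age, after 4 weeks of the diet. All mice were male and started the diet at 4 weeks of age. Epididymal white fat was taken, a visceral depot attached to the male reproductive tract. The labels call the overexpression adipocyte-specific and give no promoter, no line or founder and no account of how the control genotype was built. They number the libraries of a group from 1 to 4 and do not say whether each is 1 animal, so p-values measure the spread between these libraries only.

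Lta4h encodes leukotriene A4 hydrolase, a zinc enzyme that turns leukotriene A4, made from arachidonic acid by 5-lipoxygenase and its activating protein, into leukotriene B4. Leukotriene B4 is a lipid mediator that draws neutrophils, macrophages and lymphocytes to a tissue through the receptor Ltb4r1, and in obesity it has been linked to macrophage entry into fat. The same enzyme is also an aminopeptidase that clears the chemoattractant peptide Pro-Gly-Pro, which acts through Cxcr2. In a whole fat pad, RNA of adipocytes is mixed with that of macrophages, other leukocytes, stromal progenitors, vessels and the mesothelium that covers the pad.

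Libraries of the comparison held 33626901 to 44520881 counts. Of 45777 genes, 19189 passed the filter on low counts. The library OE replicate 1 stood apart, at 113 on the first principal component of the 8 libraries, where the other 7 lay between -33.7 and 13.1. Of the 8-week libraries, used here for side-by-side values, 4 are doubtful. Ctrl replicate 1 and OE replicate 1 lay at -94.2 and -91.8 on the second principal component of all libraries, against -42.8 to 53.5 for the remaining 6 of that age. Ctrl replicate 4 and OE replicate 2 had 3672 and 2418 CPM of Crisp1, a secreted protein of the epididymis. The rest of that age had 0.718 to 138 CPM of it. The 138 CPM was in Ctrl replicate 3, which is not among the 4, so leaving those out does not remove all such transcripts. Levels are given as CPM, counts scaled to a library total of 1e+06. Of the mature adipocyte markers, all 20 passed the filter, and their summed level was 24430 to 36900 CPM in Ctrl and 29010 to 48330 CPM in OE, with OE replicate 1 the highest. Adipoq, the adiponectin gene and a defining adipocyte marker, had 636 to 1389 CPM in Ctrl and 851 to 1965 CPM in OE.

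The targeted gene was raised in every OE library. Lta4h (gene ID 16993, chromosome 10, 93453396 to 93484896) had 95.4, 82.4, 89.0 and 87.3 CPM in Ctrl replicates 1 to 4 and 270.3, 286.5, 278.2 and 239.0 CPM in OE replicates 1 to 4. All 4 OE libraries lay above all 4 Ctrl libraries, and within each group the values lay close together. Its log2 fold change, OE over Ctrl, was 1.601 ± 0.14 (SE, edgeR quasi-likelihood test, Benjamini-Hochberg adjusted p = 1.45e-04), which is 3.03-fold. The level of the targeted gene thus went with the labelled genotype in each of the 8 libraries. A related pseudogene, Gm4854, is 90.92% identical to it over 573 bases. The difference at 8 weeks was 1.98 ± 0.14, or 2.21 ± 0.13 without the 4 doubtful libraries, and the difference between the ages, -0.38 ± 0.19, was not called (adjusted p = 0.982).

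Beside Lta4h, 4 genes passed an adjusted p under 0.05, each higher in OE. They were Gm11868, Morf4l1-ps1, Zfp949 and Gm7049. The 5 higher genes are 0.0261% of the genes tested, and the 0 lower genes are 0%, while 762 genes had an unadjusted p under 0.05. Other tests on the same counts called more. DESeq2 called 40 genes higher (0.21% of those it tested) and 19 lower (0.0995%), and limma voom with library quality weights called 14 higher (0.073%) and 6 lower (0.0313%). Of all genes tested, 238 had all 4 OE libraries above all 4 Ctrl libraries (1.24%) and 285 had all 4 below (1.49%). The median log2 fold change over all genes was 0.02.

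Zfp949 was the one called gene besides Lta4h that is annotated as protein-coding. It encodes a zinc finger protein and lies on chromosome 9 (gene ID 71640, 88548020 to 88571086). It had 8.17, 9.67, 8.80 and 10.2 CPM in Ctrl replicates 1 to 4 and 25.5, 25.5, 26.4 and 24.7 CPM in OE replicates 1 to 4. The OE libraries lay close to each other and did not overlap with Ctrl. The log2 fold change was 1.47 ± 0.20 (adjusted p = 0.0142), or 2.78-fold. At 8 weeks it was 1.12 ± 0.20 and not called (adjusted p = 0.145), while without the 4 doubtful libraries it was 0.97 ± 0.11 and called (adjusted p = 0.0178). The call at 20 weeks was lost without any 1 of Ctrl replicates 1 to 3 or OE replicates 1 to 3, with adjusted p from 0.0589 to 0.105, while the log2 fold change lay between 1.42 and 1.52 in all such fits of the 20-week libraries.

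**Figure D1:**
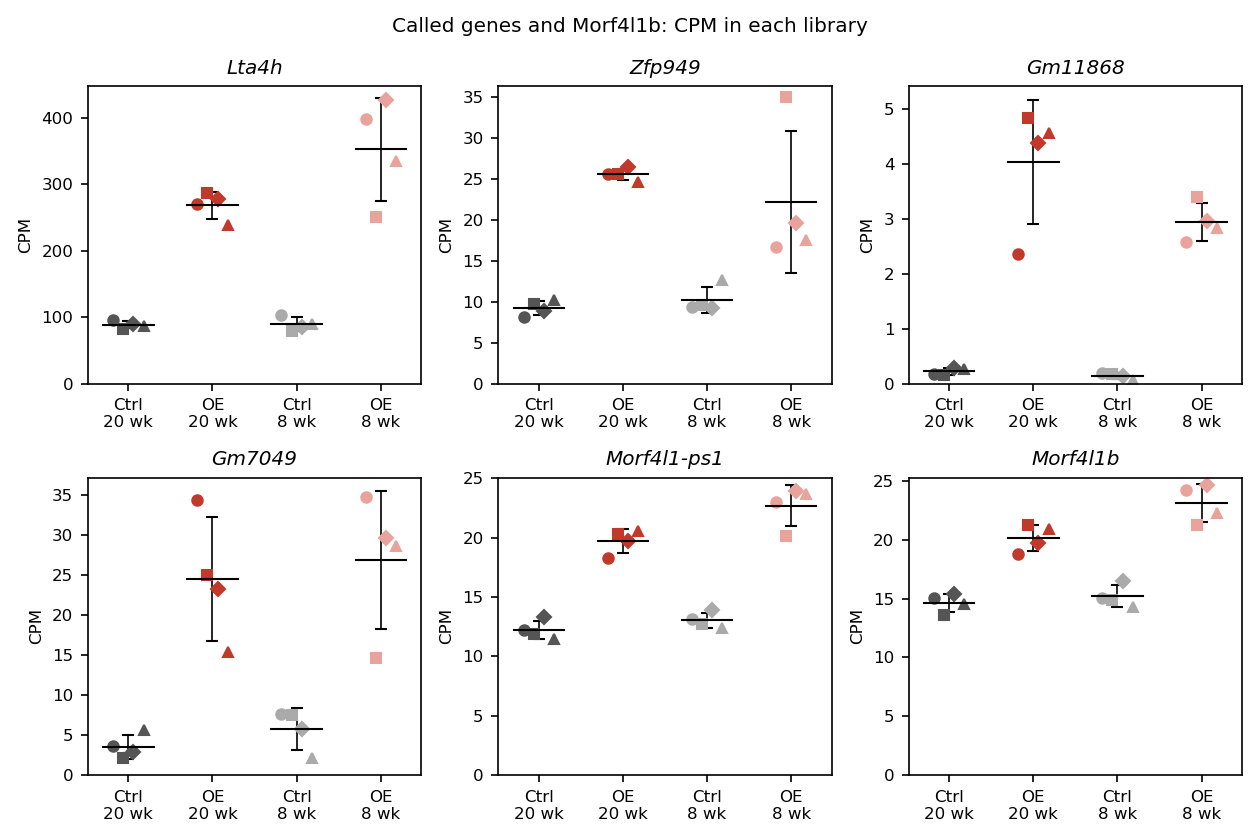
CPM (vertical axis, linear, from 0) of the 5 called genes and Morf4l1b in each library of the 4 groups. Symbols mark replicates 1 to 4 as circle, square, diamond and triangle, horizontal bars are means and whiskers are 1 SD (n = 4). In each panel the 4 OE libraries of 20 weeks lie above the 4 Ctrl libraries, as for Zfp949 at 24.7 to 26.4 CPM against 8.17 to 10.2 CPM.

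The other 3 called genes are annotated as pseudogenes, copies of a spliced messenger RNA set back into the genome elsewhere. Gm7049 also matches an antisense transcript, Gm48795, at 100% over 819 bases. Each was matched by BLAST to a protein-coding parent, and all 3 parents lie on chromosome 9, within 2 Mb of Zfp949. Gm11868 (gene ID 667251, chromosome 4, 18844005 to 18845867) is 97.98% identical over 1485 bases to Cyb5r4, which encodes a cytochrome b5 reductase. Gm7049 (gene ID 630951, chromosome 13, 62812916 to 62815515) is 98.43% identical over 1716 bases to Me1, which encodes the cytosolic malic enzyme that supplies NADPH for fatty acid synthesis. Morf4l1-ps1 (gene ID 624582, chromosome 16, 24529314 to 24534472) is 99.79% identical over 969 bases, with 2 mismatches, to Morf4l1, which encodes a chromatin-binding subunit of histone acetyltransferase complexes.

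How little separates copy and parent can be seen in the following 70-base windows, chosen as the stretch of the parent's coding sequence with the most mismatches to the copy. Sequences are those of the GENCODE transcripts on GRCm38, 5′ to 3′, and capitals mark the bases at which copy and parent differ. The first pair has 4 mismatches, the copy at chr4:18845531-18845600 on the minus strand and the parent in exons 2 and 3 on the plus strand.
Gm11868: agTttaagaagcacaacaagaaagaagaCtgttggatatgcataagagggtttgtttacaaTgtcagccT
Cyb5r4: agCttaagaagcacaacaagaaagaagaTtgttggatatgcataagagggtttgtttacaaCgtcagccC
The second pair has 3 mismatches, the copy at chr13:62813531-62813600 on the plus strand and the parent in exon 5, chr9:86650942-86651011, on the minus strand.
Gm7049: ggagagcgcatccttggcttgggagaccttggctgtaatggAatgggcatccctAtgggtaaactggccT
Me1: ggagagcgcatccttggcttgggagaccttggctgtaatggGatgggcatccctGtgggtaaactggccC
The third pair has 1 mismatch, the copy at chr16:24529843-24529912 on the plus strand and the parent in exon 8, chr9:90096524-90096593, on the minus strand.
Morf4l1-ps1: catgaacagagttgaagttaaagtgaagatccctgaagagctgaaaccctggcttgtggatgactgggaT
Morf4l1: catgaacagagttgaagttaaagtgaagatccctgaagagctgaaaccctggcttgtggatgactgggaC
Copy and parent differ at further bases outside the windows, with 23, 21 and 2 mismatches in all for the 3 pairs. Reads that cover no differing base fit copy and parent alike, and how the authors' counting divided them is not given in the sources used here. The levels of copies and parents below are therefore uncertain to that extent.

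Gm11868 was nearly absent from Ctrl and present in each OE library. Its counts were 6, 6, 11 and 10 in Ctrl replicates 1 to 4 and 96, 196, 167 and 202 in OE, which is 0.22 ± 0.06 CPM and 4.03 ± 1.13 CPM (SD, n = 4). The log2 fold change was 4.17 ± 0.34 (adjusted p = 1.06e-04). Its parent Cyb5r4 had 53.5 ± 4.42 CPM in Ctrl and 44.8 ± 9.36 CPM in OE, a log2 fold change of -0.26 ± 0.13 that was not called (adjusted p = 0.996). Set against the parent, the copy's counts were 0.288 to 0.571% of those of Cyb5r4 in Ctrl and 7.24 to 10.1% in OE.

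Gm7049 followed the same order of groups, with more spread among the OE libraries. It had 3.62, 2.11, 2.84 and 5.58 CPM in Ctrl and 34.3, 25.02, 23.2 and 15.4 CPM in OE. The log2 fold change was 2.79 ± 0.42 (adjusted p = 0.0432). Me1 had 516 ± 132 CPM in Ctrl and 521 ± 136 CPM in OE, which differ by 0.01 ± 0.35 on the log2 scale (adjusted p = 1). Within each group the ratio of copy to parent spread less than the level of the copy, at 0.491 to 0.805% in Ctrl and 4.32 to 5.10% in OE. The call of Gm7049 was lost without any 1 of Ctrl replicates 1 to 3 or OE replicates 1 to 3 (adjusted p = 0.0931 to 0.209), without some 8-week libraries, and in a fit of the 2 groups alone (0.0792).

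Morf4l1-ps1 was expressed in both groups. It had 12.2, 11.9, 13.3 and 11.4 CPM in Ctrl and 18.3, 20.3, 19.8 and 20.5 CPM in OE. The log2 fold change was 0.69 ± 0.08 (adjusted p = 0.00167). Morf4l1 itself had 253 ± 11.5 CPM in Ctrl and 231 ± 13.3 CPM in OE, a log2 fold change of -0.13 ± 0.07 that was not called (adjusted p = 0.996). The copy's counts were 4.58 to 5.24% of the parent's in Ctrl and 8.36 to 8.67% in OE. A further relative of the family, Morf4l1b on chromosome 19 (41525252 to 41526961), had 15.0, 13.6, 15.4 and 14.6 CPM in Ctrl and 18.8, 21.2, 19.7 and 20.9 CPM in OE, and its log2 fold change of 0.46 ± 0.07 did not pass (adjusted p = 0.0649). It was called by DESeq2 (adjusted p = 1.251e-06), by voom (0.00591) and by edgeR at a minimum count of 50. Of the other copies of Morf4l1 that were tested, Gm5564 had a log2 fold change of 0.07 ± 0.15 and Gm5539 one of -0.22 ± 0.23, and the groups overlapped for both.

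The stretch of chromosome 9 that holds Zfp949 and the 3 parents was then described further; this was chosen after the values had been seen. Bckdhb, a subunit of the complex that breaks down branched-chain amino acids, lies 4.62 Mb before Zfp949. It had 31.7, 27.8, 24.9 and 36.1 CPM in Ctrl and 73.9, 54.8, 58.4 and 39.5 CPM in OE. Its log2 fold change was 0.91 ± 0.21, not called by edgeR (adjusted p = 0.574) but called by DESeq2 and by voom. DESeq2 did not call it without OE replicate 1 (adjusted p = 0.258). Lysmd2, 12.9 Mb before Zfp949, had 4.09 to 5.64 CPM in Ctrl and 8.15 to 9.09 CPM in OE (0.80 ± 0.16, adjusted p = 0.386). Not called by edgeR, Lysmd2 was called higher by voom and by DESeq2 (adjusted p = 0.00306). DESeq2 also called it without OE replicate 1 (0.0324). Gsta4, a glutathione transferase for lipid aldehydes 10.4 Mb before Zfp949, had 1.49 to 5.69 CPM in Ctrl and 5.16 to 21.0 CPM in OE, which overlap (1.99 ± 0.49, adjusted p = 0.675). DESeq2 called Gsta4 higher (adjusted p = 0.0131), though not without OE replicate 1 (0.388). Tbx18, a developmental transcription factor gene 0.845 Mb before Zfp949, lay on the other side, with 5.39 to 7.14 CPM in Ctrl and 3.23 to 5.37 CPM in OE (-0.62 ± 0.24, adjusted p = 0.996).

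Within 2 Mb of Zfp949, 33 other genes were tested, and all 4 OE libraries lay above Ctrl for 0 of them and below for 2, Tbx18 and Bcl2a1d, against 1.24% and 1.49% over all genes. From 5 Mb before to 2 Mb after Zfp949, a stretch chosen after the values had been seen, 45 genes were tested, Zfp949 among them. The 2 that lay above were Zfp949 itself and Bckdhb, and 3 lay below, which is 4.44% and 6.67%. From 15 Mb before to 2 Mb after Zfp949, a stretch set to take in Lysmd2, 100 genes were tested, Zfp949 among them. All 4 OE libraries lay above Ctrl for 5 of them and below for 5, which is 5.0% each, and groups overlapped for the rest. Zfp949 and Lysmd2, which set the stretch, and Bckdhb are among the 5 above, so the share above tests no enrichment. Over chromosome 9 as a whole the shares were 1.83% and 1.83%. The median log2 fold change of the 100 was 0.00.

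**Figure D2:**
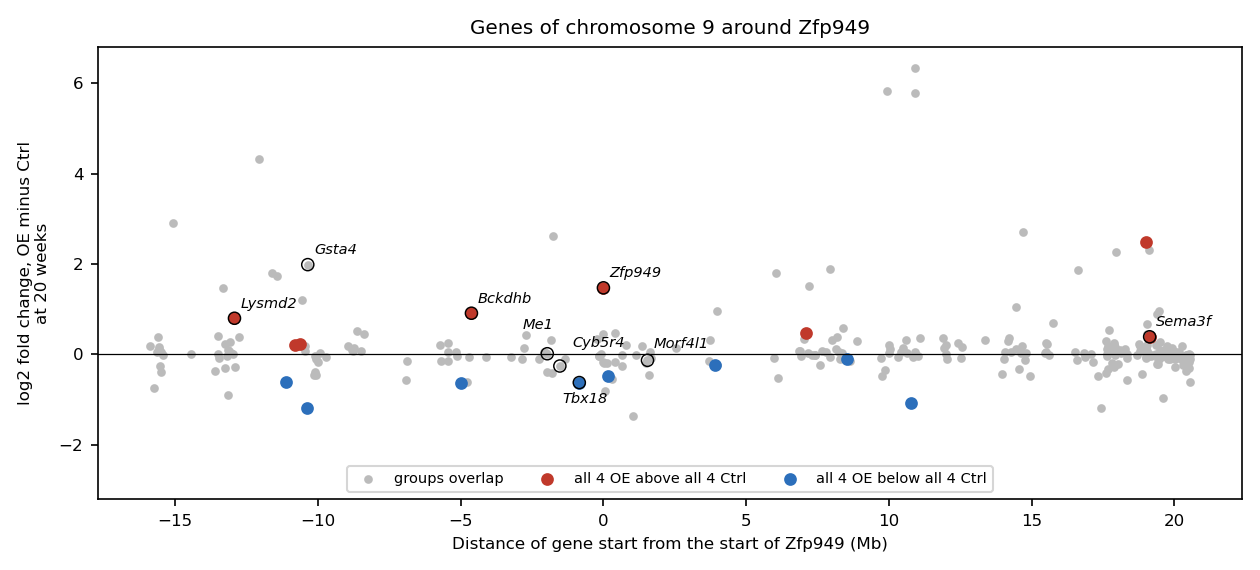
Log2 fold change of OE against Ctrl at 20 weeks (vertical axis) of the tested genes of chromosome 9 around Zfp949, by the distance of its start from that of Zfp949 in Mb (horizontal axis). Grey points are genes whose groups overlap, red points genes with all 4 OE libraries above all 4 Ctrl libraries and blue points genes with all 4 below. Zfp949 lies at 1.47 and Bckdhb at 0.91, the parents Me1, Cyb5r4 and Morf4l1 at 0.01, -0.26 and -0.13, and the highest points are grey.

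The surroundings of the other called genes were examined within 2 Mb of their starts. Around Lta4h 25 genes were tested, and 0 had groups that did not overlap, nor did any of 12 around Gm11868 or of 30 around Gm7049. Around Morf4l1-ps1, 27 genes were tested, of which 2 lay above and 3 below, against 1.24% and 1.49% over all genes. The 2 above are next to each other on chromosome 16. Eif4a2 (23107468 to 23114132), a helicase of translation initiation, had 212, 193, 190 and 206 CPM in Ctrl and 313, 296, 276 and 248 CPM in OE (0.50 ± 0.12, adjusted p = 0.588). Not called by edgeR, Eif4a2 was called higher by voom and by DESeq2 (adjusted p = 0.0192). DESeq2 did not call it without OE replicate 1 (0.26). Rfc4 (23113948 to 23127730), a subunit of the DNA clamp loader, had 4.68 to 6.96 CPM in Ctrl and 7.54 to 9.33 CPM in OE (0.54 ± 0.15, adjusted p = 0.996). The 3 below were Ahsg and Kng2, which encode plasma proteins made mainly by the liver, at -1.02 ± 0.41 and -0.84 ± 0.35, and BC106179 at -1.12 ± 0.35. Adipoq, which follows Rfc4 (23146536 to 23157968), had a log2 fold change of 0.48 ± 0.31 with overlapping groups. At 8 weeks the log2 fold changes were 0.70 ± 0.12 for Eif4a2 and 0.65 ± 0.16 for Rfc4, not called by edgeR there either (adjusted p = 0.124 and 0.901). Without the 4 doubtful libraries they were 0.88 ± 0.14 and 0.48 ± 0.19.

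The rest of the leukotriene pathway did not pass the edgeR test. Levels per length are given as the authors' deposited TPM, whose scale allows genes to be set side by side. Alox5, the 5-lipoxygenase that makes leukotriene A4, had 9.15 ± 1.53 TPM in Ctrl and 8.06 ± 0.684 in OE, a log2 fold change in the counts of -0.15 ± 0.13. Alox5ap, its activating protein, had 177 ± 27.1 TPM in Ctrl and 165 ± 51.8 in OE (-0.07 ± 0.21). Lta4h itself had 93.6 ± 5.16 TPM in Ctrl and 278 ± 19.3 in OE. On this scale Lta4h lay above Alox5 by a wide margin in both groups, and in OE it had a mean close to that of Ltc4s.

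Ltc4s, the synthase of the competing cysteinyl branch, had 255 ± 66.1 TPM in Ctrl and 278 ± 35.4 in OE (0.15 ± 0.30). Pla2g4a, the phospholipase that releases arachidonic acid, had a log2 fold change of -0.25 ± 0.44, and the microsomal glutathione transferases Mgst2 and Mgst3, which can also form leukotriene C4, had 0.34 ± 0.24 and 0.30 ± 0.23. Of the 7 synthesis genes, Lta4h alone was called. Among the receptors, Ltb4r1 had 1.96 ± 0.544 TPM in Ctrl and 1.74 ± 0.243 in OE (-0.24 ± 0.26). Cysltr1, a receptor for cysteinyl leukotrienes, had 0.12 ± 0.16 and Cysltr2 had -0.26 ± 0.38, while Ltb4r2, Gpr17 and Oxgr1 were too low to test, with 15, 9 and 0 counts over the 8 libraries. None of the 8 aminopeptidases related to Lta4h was called, with a median of -0.02, and edgeR called none of the 7 genes of leukotriene breakdown. Ggt1, a glutamyl transferase of that list, was called higher by DESeq2 (adjusted p = 9.567e-12); it had 12.4 CPM in OE replicate 1, 0.105 CPM in OE replicate 3 and 0 counts in the other 6 libraries, and was not called without OE replicate 1 (adjusted p = 1). At 8 weeks Ggt1 had 0 to 39.2 CPM across the libraries. Of the Pro-Gly-Pro list, Prep, the peptidase that releases the tripeptide, had -0.03 ± 0.12 and Mmp9, a collagen-cutting protease upstream of it, -0.24 ± 0.46. Cxcr2, its receptor, had at most 1.27 CPM in any of the 8 libraries.

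Adipocyte genes and genes of fat storage had positive log2 fold changes that did not pass the test. Of 20 mature adipocyte markers, 20 had a log2 fold change above 0 and 0 were called, with a median of 0.38 against 0.02 over all genes. Pparg, the master regulator of adipocyte differentiation, had 114, 85.3, 85.5 and 98.2 CPM in Ctrl and 149, 122, 124 and 103 CPM in OE (0.38 ± 0.16, adjusted p = 0.996). The OE library replicate 4 overlapped with Ctrl. Car3, a carbonic anhydrase abundant in adipocytes, had 2274, 1673, 1123 and 3045 CPM in Ctrl and 5972, 2472, 2665 and 1602 CPM in OE (0.65 ± 0.38). The highest value of both genes belonged to OE replicate 1. The median of the list was 0.16 without that library and 0.23 without Ctrl replicate 3.

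The same held for the stores and hormones that adipocytes make. Of 19 genes of fatty acid and triglyceride synthesis, 19 had a log2 fold change above 0, with a median of 0.22, 0.11 without OE replicate 1 and 0.36 without OE replicate 4. All 4 OE libraries lay above Ctrl for 1 of the 19, where the share over all genes was 1.24%. That member was Elovl5, an elongase of polyunsaturated fatty acids, at 79.9 to 92.7 CPM in Ctrl and 99.2 to 107 CPM in OE (0.23 ± 0.09, adjusted p = 0.996). Elovl6, the elongase of saturated chains, had 21.8, 21.7, 24.1 and 41.6 CPM in Ctrl and 55.3, 37.1, 32.4 and 41.5 CPM in OE (0.61 ± 0.26). Plin1, a lipid droplet coat protein, had a log2 fold change of 0.37 ± 0.24 and Mgll, the monoglyceride lipase, 0.38 ± 0.20. Rbp4 and Retn, secreted by adipocytes, had 0.78 ± 0.45 and 0.64 ± 0.41. The median over 13 adipokines was 0.48, and 0.07 without OE replicate 1. Of 10 thermogenic genes 9 were tested, with a median of 0.05, and Ucp1, the heat-making uncoupler, stayed under 1 CPM in all 8 libraries.

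Genes of cholesterol synthesis lay on the same side with or without that library. All 23 had a log2 fold change above 0, with a median of 0.32, between 0.26 and 0.43 when any 1 of the 8 libraries was left out; none was called. Tm7sf2, a sterol reductase, had 7.62, 8.53, 8.22 and 10.1 CPM in Ctrl and 13.2, 11.1, 11.9 and 10.5 CPM in OE (0.44 ± 0.14, adjusted p = 0.996). Fdft1, the squalene synthase, had 23.1, 27.4, 23.4 and 31.2 CPM in Ctrl and 38.9, 35.4, 28.5 and 31.1 CPM in OE (0.35 ± 0.13). Sqle, the squalene epoxidase that follows it, had 20.3 to 26.1 CPM in Ctrl and 24.9 to 47.0 CPM in OE (0.49 ± 0.19). All 4 OE libraries lay above Ctrl for 2 of the 23, Tm7sf2 among them, where the share over all genes was 1.24%. Groups overlapped for Fdft1 and Sqle. The members share libraries, so their signs are not independent of each other. At 8 weeks the values of Tm7sf2, Fdft1 and Sqle had the opposite sign, at -0.33, -0.19 and -0.43, or -0.41, -0.29 and -0.55 without the 4 doubtful libraries, and none was called.

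**Figure D3:**
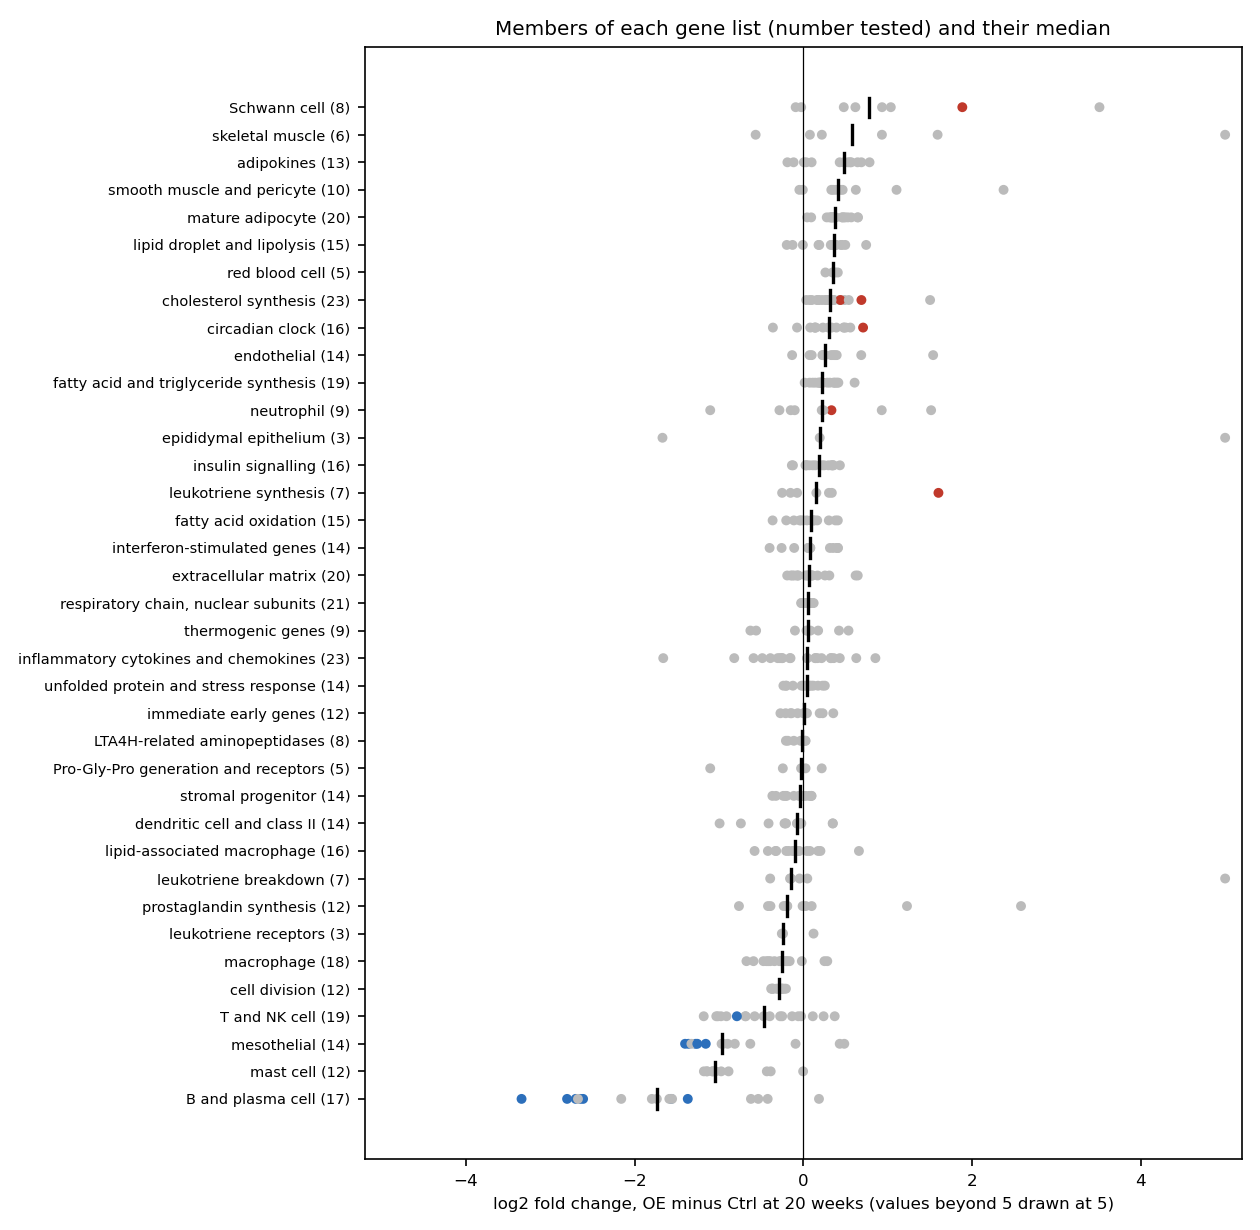
Log2 fold change of OE against Ctrl at 20 weeks (horizontal axis) for the tested members of each of the 37 gene lists (rows, with the number tested). Points are genes, red where all 4 OE libraries lay above Ctrl, blue where all 4 lay below and grey where groups overlap, and black bars are medians. Values beyond 5 are drawn at 5. The medians run from -1.74 for B and plasma cell genes to 0.77 for Schwann cell genes, the latter 0.03 without OE replicate 1.

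Several lists of leukocyte genes had medians below 0. The B and plasma cell list had the lowest median, -1.74, with 16 of 17 members below 0, where 46.35% of all genes lay below 0, and 0 called by edgeR. For 7 of the 17 all OE libraries lay below all Ctrl libraries, where the share over all genes was 1.49%. The summed level of the list overlapped, at 2501, 540, 456 and 848 CPM in Ctrl and 693, 1051, 631 and 482 CPM in OE. Ms4a1, the B cell surface protein CD20, had 17.3, 2.73, 2.01 and 3.95 CPM in Ctrl and 1.23, 1.53, 0.602 and 0.361 CPM in OE (-2.80 ± 0.70, adjusted p = 0.701). Pax5, the transcription factor that sets B cell identity, had 11.2, 2.90, 1.53 and 3.05 CPM in Ctrl and 0.884, 1.31, 0.471 and 0.316 CPM in OE (-2.65 ± 0.64, adjusted p = 0.617). DESeq2 called both lower (adjusted p = 0.0126 and 0.0109), and Cd79a of the same list (0.0328), and none of the 3 without OE replicate 1 (0.068, 0.0702 and 0.253). In Ms4a1 and Pax5 Ctrl replicate 1 was far above the rest, and without it the median of the list was -0.70, while it was -2.72 without OE replicate 2. T and NK cell genes, with a median of -0.47, had one of 0.04 without Ctrl replicate 1 and -0.74 without OE replicate 2. Fewer cells of a type and less RNA per cell cannot be told apart in whole tissue, here or for the lists that follow.

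Mast cell and mesothelial genes mostly had log2 fold changes below 0, and edgeR called 0 of them. Of 12 mast cell genes, 12 had a log2 fold change below 0, with a median of -1.05. Mcpt4, a mast cell chymase, had 63.2, 71.5, 67.4 and 30.9 CPM in Ctrl and 17.0, 32.6, 26.5 and 29.1 CPM in OE (-1.15 ± 0.36, adjusted p = 0.996). Ctrl replicate 4 lay among the OE libraries, and without it the median of the list was -1.24. Of 14 mesothelial genes, 12 were below 0, with a median of -0.96, and for 5 of the 14 all OE libraries lay below Ctrl, where the share over all genes was 1.49%.

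Upk3b, a membrane protein of the mesothelium, had 77.4, 55.1, 56.9 and 138 CPM in Ctrl and 24.96, 45.1, 14.9 and 42.4 CPM in OE (-1.36 ± 0.38, adjusted p = 0.996). Lrrn4, another mesothelial surface protein, had 30.7, 20.2, 22.3 and 50.3 CPM in Ctrl and 9.16, 16.2, 5.47 and 15.8 CPM in OE (-1.40 ± 0.35, adjusted p = 0.701). DESeq2 called Lrrn4 lower (adjusted p = 0.0249), though not without OE replicate 1 (0.258). Ctrl replicate 4 was the highest and OE replicate 3 the lowest in both genes, and the median of the list was -0.64 without the former and -0.76 without the latter. Wnt2b, which encodes a Wnt ligand, also had its highest value in Ctrl replicate 4 and its lowest in OE replicate 3, with 14.9, 9.72, 10.2 and 26.9 CPM in Ctrl and 5.13, 4.72, 2.80 and 7.06 CPM in OE (-1.65 ± 0.38, adjusted p = 0.574).

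Macrophages are the leukocytes most often tied to obese fat. Of 18 macrophage genes, 16 had a log2 fold change below 0, with a median of -0.26, and -0.13 without OE replicate 1. Folr2, a folate receptor of resident macrophages, had 256, 294, 287 and 152 CPM in Ctrl and 102, 194, 153 and 170 CPM in OE (-0.68 ± 0.22, adjusted p = 0.996). C1qc, a complement subunit, had 782, 761, 822 and 485 CPM in Ctrl and 318, 663, 556 and 568 CPM in OE (-0.44 ± 0.22). Ctrl replicate 4 overlapped with OE in both genes. Lipid-associated macrophage genes, which mark foamy macrophages around dying adipocytes, had a median of -0.10, which was 0.05 without OE replicate 1 and 0.03 without Ctrl replicate 2. Of 25 inflammatory cytokines and chemokines, 23 were tested and 0 called, with 12 above 0 and 11 below. Neutrophils are textbook targets of leukotriene B4. Of 12 neutrophil genes 3 did not pass the filter on low counts. Of these Ly6g had counts in OE replicate 2 alone and Mpo at most 10 counts in any library. Ngp had 141 counts in OE replicate 2, 36 in Ctrl replicate 2 and at most 6 in any other library. Of the 9 tested, 5 were above 0 and 4 below, with a median of 0.22, which was -1.28 without OE replicate 2. Cxcr2 had the lowest value of the list, -1.10 ± 0.65. S100a8, a calprotectin subunit, had 12.3 to 15.1 CPM in Ctrl and 15.2 to 22.2 CPM in OE (0.33 ± 0.25, adjusted p = 0.996). It was the 1 of the 9 whose groups did not overlap, where all 4 OE libraries lay above Ctrl for 1.24% of all genes.

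Vascular genes were mostly above 0 and cell division genes below. Of 14 endothelial genes, 13 were above 0, with a median of 0.25, which was 0.12 without OE replicate 1 and 0.40 without OE replicate 4. Rgs5, a pericyte marker, had 124, 67.3, 76.7 and 128 CPM in Ctrl and 191, 129, 174 and 115 CPM in OE (0.62 ± 0.20, adjusted p = 0.996). Of 12 cell division genes, 12 were below 0, with a median of -0.29, which ran from -0.455 without OE replicate 4 to -0.119 without OE replicate 1. Stromal progenitor genes had a median of -0.04, and Pdgfra, the receptor that marks them, had 120, 159, 169 and 150 CPM in Ctrl and 115, 102, 120 and 126 CPM in OE (-0.37 ± 0.17). Medians near 0 were found for extracellular matrix (0.06), respiratory chain (0.06), the unfolded protein response (0.04) and immediate early genes (0.00).

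Among regulatory genes, 14 of 16 circadian clock genes had a log2 fold change above 0, with a median of 0.30 that was 0.13 without OE replicate 2. Bhlhe40, a repressor within the clock, had 26.9, 30.2, 32.1 and 41.5 CPM in Ctrl and 46.3, 51.6, 40.2 and 54.0 CPM in OE (0.56 ± 0.17, adjusted p = 0.996). Ctrl replicate 4 lay just above the lowest OE library, and at 8 weeks the log2 fold change was -0.62, or -0.74 without the 4 doubtful libraries. Hlf, a clock output factor, had 1.74 to 2.95 CPM in Ctrl and 3.16 to 4.72 CPM in OE (0.71 ± 0.47, adjusted p = 0.996). Of 16 insulin signalling genes 14 were above 0, with a median of 0.18; Irs2, an adaptor of the insulin receptor, had 45.4 to 73.5 CPM in Ctrl and 63.3 to 78.8 CPM in OE (0.35 ± 0.20). Of 12 prostaglandin synthesis genes, which draw on the same arachidonic acid as the leukotrienes, 8 were below 0. Tbxas1, the thromboxane synthase, had 101, 133, 133 and 92.1 CPM in Ctrl and 51.6, 92.7, 82.0 and 117 CPM in OE, which overlap (-0.42 ± 0.30).

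**Figure D4:**
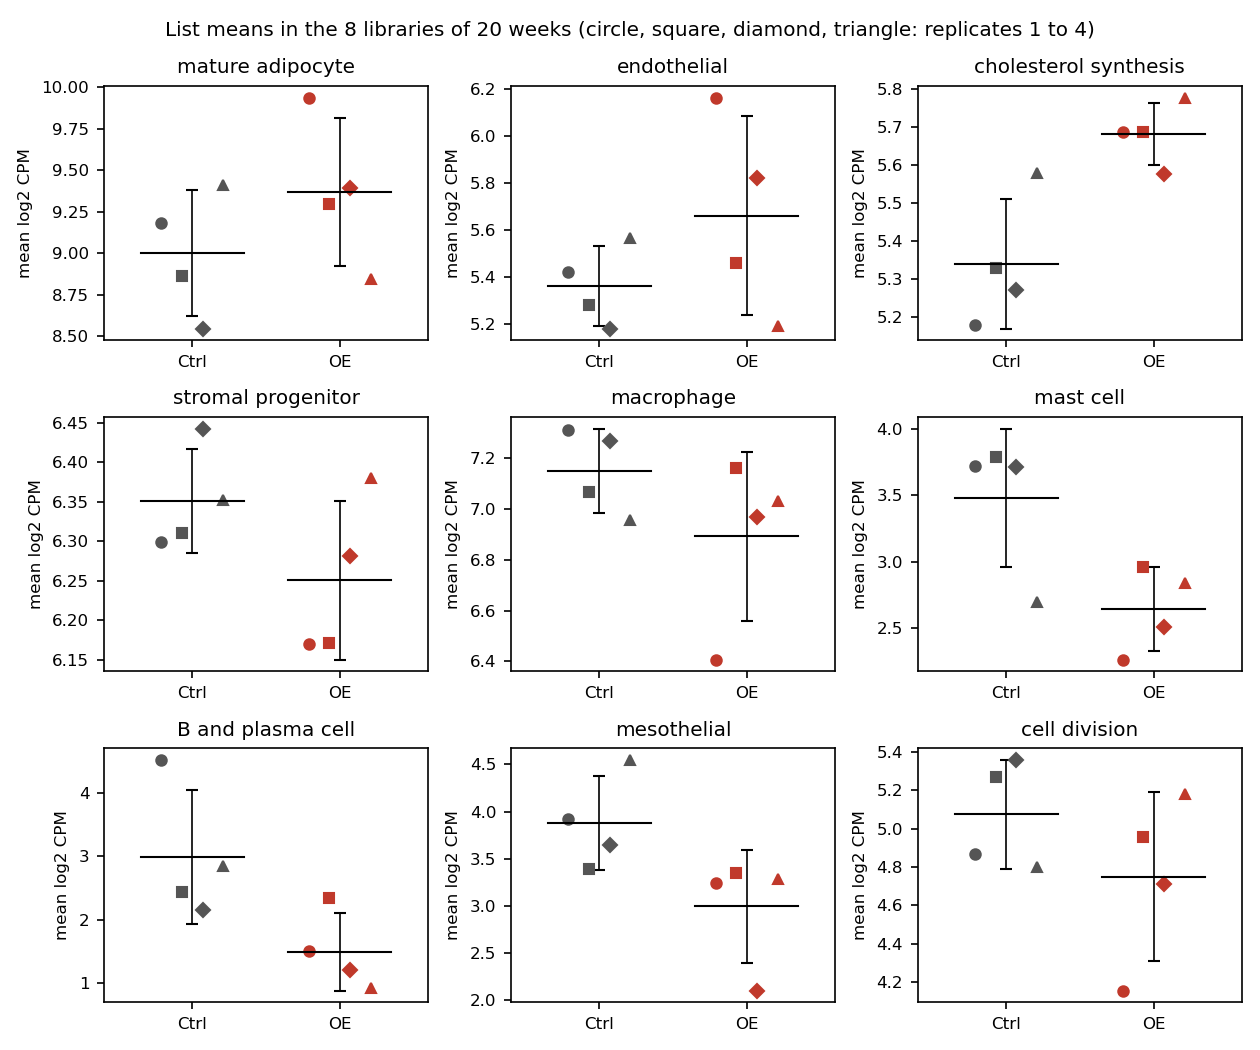
Mean log2 CPM (vertical axes, each with its own range, not from 0) of the members of 9 gene lists in the 8 libraries of 20 weeks. Symbols mark replicates 1 to 4 as circle, square, diamond and triangle, bars are means and whiskers 1 SD (n = 4). OE replicate 1 is the highest in the mature adipocyte panel, at 9.94, and the lowest in the macrophage panel, at 6.41, while in the cholesterol synthesis panel Ctrl replicate 4, at 5.58, lies with the OE libraries.

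Among single genes that were not called, those with the smallest p-values and groups that did not overlap were read in both directions, 12 a side. Nrcam, a neuronal cell adhesion gene, had 17.7, 26.1, 21.0 and 11.9 CPM in Ctrl and 8.22, 9.63, 11.02 and 8.61 CPM in OE (-1.03 ± 0.20, adjusted p = 0.386). Lgals7, which encodes galectin-7 of stratified epithelia, had 6.37, 5.01, 6.11 and 6.62 CPM in Ctrl and 0.933, 2.69, 1.02 and 2.37 CPM in OE (-1.78 ± 0.36, adjusted p = 0.386). Gpr34, a lysophosphatidylserine receptor of macrophages and mast cells, had 38.3, 36.0, 43.1 and 29.2 CPM in Ctrl and 20.0, 18.1, 26.1 and 27.4 CPM in OE (-0.68 ± 0.15, adjusted p = 0.524). The Ctrl libraries of Nrcam lay well apart from one another, those of Lgals7 close together, and all lay above OE. Rasgrp3, a Ras activator, had 50.1, 87.0, 75.6 and 52.8 CPM in Ctrl and 40.1, 37.6, 42.7 and 41.7 CPM in OE (-0.71 ± 0.17, adjusted p = 0.592), and the secreted ribonuclease gene Rnase4 had -0.47 ± 0.13 (adjusted p = 0.918). DESeq2 and voom both called Nrcam, Gpr34, Rasgrp3 and Rnase4 lower. Without OE replicate 1, DESeq2 still called Nrcam (adjusted p = 0.0491) but not Gpr34, Rasgrp3 or Rnase4 (0.253, 0.237 and 0.433). Lgals7 was called lower by DESeq2 with that library (adjusted p = 5.6e-04) and without it (0.0179), but not by voom.

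The others low in OE were Igkv4-55 and Cd79a of B cells, Fras1 and Lrrn4 of epithelial and mesothelial surfaces, Wnt2b, the collagen-modifying P3h4 (-0.51 ± 0.13) and Adgrd1, an adhesion receptor (-0.47 ± 0.12). Fras1, of the basement membrane, had a log2 fold change of -1.46 ± 0.33. Igkv4-55 was called lower by DESeq2 with OE replicate 1 (adjusted p = 2.91e-06) and without it (5.34e-04), but not by voom. Its highest value was 49.9 CPM, in Ctrl replicate 1. Fras1 and Wnt2b were called lower by DESeq2 (0.00829 and 0.00752), though not without OE replicate 1 (0.0985 and 0.0702). At 8 weeks, 10 of these 12 genes had a log2 fold change above 0, such as 0.43 for Gpr34 and 0.33 for Nrcam, and without the 4 doubtful libraries 7 of the 12 did. The 12 were picked by their values at 20 weeks, so their signs at 8 weeks do not test a difference between ages. The difference between the ages was called for 0 genes, and 650 had an unadjusted p under 0.05. Without the 4 doubtful libraries it was called for 1 gene, Insl3, which had 0.361 to 1.28 CPM in the 8 libraries of 20 weeks. In the 8-week libraries kept, Insl3 had 44.9 and 26.6 CPM in Ctrl replicates 2 and 3. It had 0.444 and 0.306 CPM in OE replicates 3 and 4 of that age. In the 4 libraries left out, Insl3 had 0.398 and 0.799 CPM in Ctrl replicates 1 and 4. OE replicates 1 and 2 had 0.273 and 10.5 CPM. With all libraries kept, its difference between the ages was not called (edgeR adjusted p = 0.982), so the call depends on which libraries were left out.

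**Figure D5:**
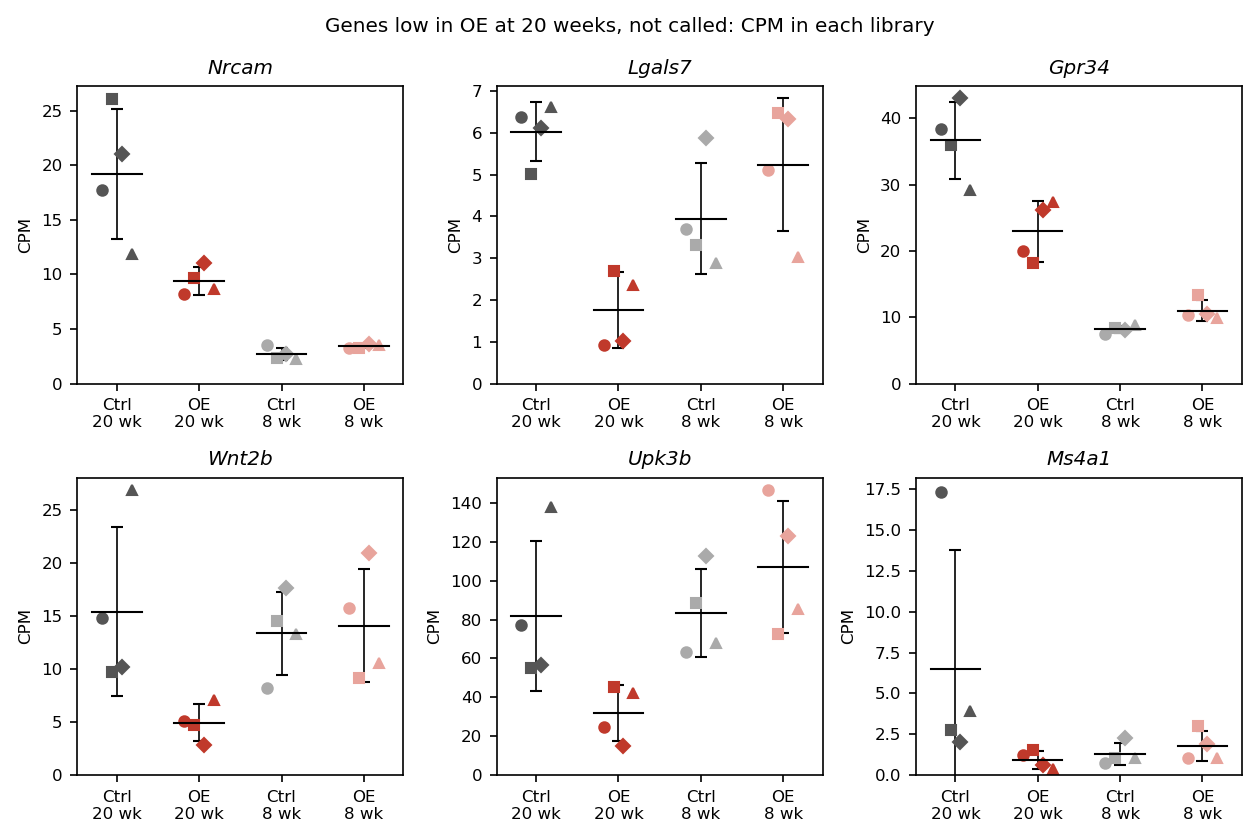
CPM (vertical axis, linear, from 0) in each library of 6 genes that were low in OE at 20 weeks and not called. Symbols, bars and whiskers are as for the called genes, with mean and 1 SD (n = 4). In the 20-week groups OE lies below Ctrl for each gene, as for Gpr34 at 18.1 to 27.4 CPM against 29.2 to 43.1 CPM, and in the 8-week groups OE and Ctrl overlap for the other 5 genes while for Gpr34 OE lies above Ctrl.

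On the high side, Sema3f, a secreted semaphorin, had 27.9, 24.6, 24.2 and 29.1 CPM in Ctrl and 36.5, 35.4, 33.8 and 32.8 CPM in OE (0.39 ± 0.08, adjusted p = 0.486). Aldh1a3, an enzyme that makes retinoic acid, had 39.9, 21.9, 33.7 and 32.3 CPM in Ctrl and 48.99, 52.2, 60.1 and 48.3 CPM in OE (0.71 ± 0.16, adjusted p = 0.524). Btbd3 had 0.41 ± 0.09 and Auts2, a regulator of transcription, 0.59 ± 0.14. DESeq2 and voom both called Sema3f and Aldh1a3 higher (DESeq2 adjusted p = 0.0163 and 0.0109). DESeq2 but not voom called Btbd3 and Auts2 (0.0265 and 0.0407). Without OE replicate 1, DESeq2 called none of these (0.253, 0.068, 0.254 and 0.437). The groups lie close together for Sema3f and further apart for Aldh1a3. Mustn1, of the musculoskeletal system, had 0.39 ± 0.11 and Usp10, a deubiquitinase, 0.18 ± 0.06.

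Of the 40 genes DESeq2 called higher, 21 had 0 counts in all 4 Ctrl libraries and over 80% of their OE signal in OE replicate 1. Mmp7, a matrix protease of glandular epithelia, had 17.0 CPM in that library, 0.602 and 0.135 CPM in OE replicates 3 and 4 and 0 in OE replicate 2. Cdh16, an epithelial cadherin, had 12.9 CPM there and at most 0.314 CPM elsewhere in OE. Dnah5, a dynein of motile cilia, had 12.8 CPM and Cfap44, another cilia gene, 13.3 CPM. Over all genes, 80 had 0 counts in the 4 Ctrl libraries and over 1 CPM in OE replicate 1, against 2, 3 and 1 in OE replicates 2, 3 and 4. Of the 11 epididymal epithelium markers, 8 were too low to test, Lcn5 and Gpx5 among them at 0 counts in all 8 libraries. Adam7, a tested member, had 3.83 CPM in OE replicate 1, 0.34 CPM in OE replicate 3 and 0 in the other 6 libraries. The summed level of that list was 0 to 1.97 CPM in Ctrl and 0.225 to 3.90 CPM in OE, with OE replicate 1 the highest. In 8-week Ctrl replicate 4 and OE replicate 2, which had the most Crisp1, Mmp7 had 57.8 and 32.9 CPM. Cdh16 had 28.4 and 21.4 CPM there, Dnah5 19.6 and 14.1, Cfap44 24 and 19.6 and Adam7 7.21 and 2.80. Capn11, also among the 80, had 0.514 and 0 CPM there. The part of these transcripts in the results of OE replicate 1 was not tested. Without OE replicate 1, DESeq2 called 7 genes higher and 6 lower, and edgeR 3 higher (Lta4h, Gm11868 and Morf4l1-ps1) and 0 lower.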

How the data were processed

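RNA of epididymal fat was sequenced in 16 libraries, 4 in each of 4 groups; total RNA was isolated with RNeasy and made into TruSeq stranded mRNA libraries, per the labels' protocols. The tools and build named in the submitters' processing notes are bcl2fastq 2.20.0, Trimmomatic, HISAT2 2.1.0, StringTie 2.1.3b and mm10; the strand setting and annotation release are not given in the sources used here. The deposited counts are whole numbers per gene that the authors had not normalised, and they were tested. The authors' deposited TPM values (per kilobase and scaled to a fixed sum) were used for levels between genes only. The authors' deposited FPKM values (scaled by gene length and library size) were not used.

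Counts were fitted in R 4.3.3 with edgeR 4.0.16: filterByExpr at a minimum count of 10, TMM scaling and a robust quasi-likelihood fit of all 4 groups with 12 residual degrees of freedom, which share 1 estimate of spread. P-values were adjusted over all 19189 genes by Benjamini-Hochberg, and adjusted p-values in the text are from this test unless another tool is named. Fold changes on the log2 scale carry their SE, CPM and TPM means their SD (n = 4). The limit for a call was an adjusted p of 0.05. DESeq2 1.42.0 and limma 3.58.1 (voom) were alternatives. List means used log2 CPM with a prior count of 2. None of the 120 pairs of libraries held identical counts. Transcripts of GENCODE M21 were searched with BLAST 2.17.0 (word size 20, E-value limit 1e-10). Positions come from RefSeq on GRCm38, the mm10 build, by gene ID. Figures were drawn with matplotlib 3.10.9.

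The comparison, its 37 gene lists and the tests were chosen with earlier results of these data known. Genes named are Lta4h; all called genes; of those not called, 12 in each direction with the smallest p, groups that do not overlap, a mean log2 CPM of at least 1 and no predicted, clone or pseudogene name; all leukotriene synthesis and receptor genes; up to 4 members of every other list with the smallest p; and genes within 2 Mb of a called gene whose groups do not overlap at an unadjusted p under 0.05. Parent genes, Gsta4, Bcl2a1d, Insl3 and genes called by DESeq2 were named after their values were seen. The alternatives are in the closing section.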

Additional observations from a re-analysis of the deposited data

Results flagged for a closer look

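Within groups of 4 libraries, 84 sets of values (called genes and list means) were searched for a library far from the other 3, and chance marks about 5 in 100 such sets. Those that stood out by that measure follow. Gm11868 had 1.27 log2 CPM in OE replicate 1, against 2.14 to 2.29 in the other OE libraries. The respiratory chain list mean was 7.13 log2 CPM in Ctrl replicate 3, while the remaining Ctrl libraries had 7.30 to 7.31. The mast cell list mean was 2.70 log2 CPM in Ctrl replicate 4, against 3.71 to 3.79. The neutrophil list mean was 1.25 log2 CPM in OE replicate 2, against -0.79 to -0.68, and without that library the median log2 fold change of the list was -1.28 in place of 0.22. The mesothelial list mean was 2.101 log2 CPM in OE replicate 3, against 3.25 to 3.35.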

How the results depend on the processing

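Lta4h, Gm11868 and Morf4l1-ps1 were called at 20 weeks in all 27 alternatives, Zfp949 in 20 and Gm7049 in 11, and no direction turned. The genes higher numbered 40 and those lower 19 with DESeq2, 14 and 6 with voom, and 7 and 6 with DESeq2 without OE_20wk replicate 1, an alternative added after seeing the data. Leaving out 1 library at a time gave 3 to 5 higher and 0 to 1 lower. It was 3 higher when the library left out was Ctrl_20wk replicate 2, Ctrl_20wk replicate 3, OE_20wk replicate 1, OE_20wk replicate 2 or OE_20wk replicate 3. Nrcam was called lower without Ctrl_20wk replicate 4, and LOC115487730 was lower, and Car1 higher, without Ctrl_20wk replicate 1. Same-numbered libraries of 20 weeks did not deviate together (correlations of -0.24 to 0.03), which cannot settle whether the numbers mark a pairing. At 8 weeks, Ctrl replicate 1 and OE replicate 1 lay together on the second principal component (-94.2 and -91.8). With the replicate block 4 genes were higher and 0 lower, Gm7049 having an adjusted p of 0.222. Also added after seeing the data, the fit without OE_20wk 1 and Ctrl_20wk 1 together gave 4 higher, Car1 among them in place of Zfp949 and Gm7049 (0.321 and 0.371), and that without the 4 doubtful 8-week libraries gave 5. Of the 37 list medians, 35 moved over 1.5 times and 15 changed sign when 1 of the 8 libraries was left out. Without those 4, Zfp949 was also called at 8 weeks (0.0178), and 1 gene in place of 0 was called for the difference between ages. At a minimum count of 50, edgeR called 6 genes higher, Morf4l1b among them. Low counts limit the value of Gm11868, which rested on 6 to 11 counts in each Ctrl library.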
